A study of Mus musculus with 6 samples.

Results

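The comparison set the perineal NT3 tumors, numbered 27 and 36, against the trunk NT3 tumors, numbered 13, 18, 25 and 29, by the site given in the sample labels. The 2 perineal and 4 trunk tumors are all 6 tumors of the series, each from a different female mouse. NT3 is a form of NF-κB-inducing kinase (NIK) that lacks its TRAF3-binding domain, placed in the ROSA26 locus behind a stop cassette that Cre removes, and every tumor in the comparison carried it. Tumors 13, 18 and 25 came from Osx-Cre;NT3 mice, in which an osteoblast-lineage promoter drives Cre and doxycycline chow was given up to weaning. Tumors 27, 29 and 36 came from FSP1-Cre;NT3 mice, in which Cre is driven by the S100a4 promoter, which is active in fibroblasts and has also been described in myeloid cells. The NT3 mice were on C57Bl/6J, the Osx-Cre mice on a mix of C57Bl/6J and CD1, and the FSP1-Cre mice on FVB/n. Both perineal tumors were thus FSP1-Cre;NT3, and only tumor 29 was a trunk tumor of that line,so line and site are partly tied and the main differences are also given against tumor 29. Overlying tissue was removed when tumors were excised, and samples had been screened for blood and for Cd68 before sequencing. Latencies were 101 and 52 days in perineal tumors 27 and 36, 150, 168 and 115 days in trunk tumors 13, 18 and 25, and 72 days in trunk tumor 29.

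NIK is held at a low level by a complex that contains TRAF3 and the ubiquitin ligases Birc2 and Birc3, and when it escapes that complex it activates IKKα, which leads to processing of the Nfkb2 product p100 and to entry of p52 and RelB into the nucleus. Skin and the tissue beneath it keep a record of where on the body they lie, in part through HOX genes, of which those at the 5′ ends of the clusters (the posterior HOX genes) are used in the caudal body, the limbs and the genital region. The perineum is skin that borders on the anal canal and the genital opening, with glands, smooth muscle and fat near the surface. In RNA from whole tumors, fewer cells of a type and less RNA per cell cannot be told apart.

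Levels are given in CPM, that is, counts divided by the TMM-scaled library size, and in each sentence trunk values stand in the order 13, 18, 25 and 29 and perineal values in the order 27 and 36. Of 23358 entries in the count table, 16971 passed the filter on low counts and were tested. Total counts ran from 51824408 in tumor 13 to 163297772 in tumor 18, so that 3 counts corresponded to 0.0184 to 0.0579 CPM by library size alone. Levels near these values rest on few counts. Rn45s, the entry for the ribosomal RNA precursor, was highest in perineal tumor 36, with 13.3% of its counts, and held 5.28% to 10.2% in the other tumors. The basal keratinocyte genes, which mark the lower layer of the epidermis, were present in every tumor, with a summed level of 10530 to 15500 CPM over the 12 genes in the trunk tumors and of 11660 and 6532 CPM in the perineal tumors. The 6 libraries of separate mice were taken as replicates of their site.

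No gene passed edgeR's test of perineal against trunk tumors. In edgeR's quasi-likelihood test, adjusted by the Benjamini-Hochberg method, 0 genes (0%) were called higher and 0 (0%) lower, and the smallest adjusted p was 0.263 in edgeR. At an unadjusted p under 0.05 edgeR gave 1507 genes (8.88%) higher and 277 (1.63%) lower in perineal tumors. DESeq2 called 566 genes (3.34%) higher and 39 (0.23%) lower at an adjusted p under 0.05. The DESeq2 calls on each gene list below are to be read beside these shares of all genes. Against tumor 29 alone, edgeR again called 0 genes (0%) in either direction, with 217 higher and 46 lower at an unadjusted p under 0.05, and DESeq2 called 30 (0.177%) higher and 5 (0.0295%) lower. Tumor 29 has no second library of its kind, and in these fits it was assumed to vary as the other groups did.

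The DESeq2 calls leaned on tumor 36. Without tumor 36, DESeq2 called 9 genes higher and 5 lower, and without tumor 27 it called 1189 higher and 303 lower. These DESeq2 fits were chosen once the data were known, and each sets a single perineal library against the trunk tumors, with a spread taken from the trunk tumors alone. Of the 566 genes called higher, both perineal tumors lay above all trunk tumors in 379 (67%), and tumor 36 alone did so in 187 (33%). Counted over all genes tested, both perineal tumors lay above all 4 trunk tumors in 1724 genes (10.2%) and below them in 1630 (9.6%). Tumor 36 alone lay above the trunk tumors in a further 2909 genes (17.1%) and below them in 2848 (16.8%), and tumor 27 alone lay above them in 948 (5.59%). Some low genes passed the filter only through perineal tumors and were bound to differ: of the 16971 genes, 622 did not reach the filter's level of 0.148 CPM in 2 trunk tumors, and among the 16349 that did, both perineal tumors lay above the trunk tumors in 1541 (9.43%). A gap of at least 2-fold between the lower perineal tumor and the highest trunk tumor was found in 110 of 14194 genes with a mean of at least 1 CPM (0.775%), and the same gap downward in 3 (0.0211%). The mean was taken over all tumors, so a gene could reach it through the tumors of its higher site alone. With library sizes alone in place of TMM scaling, both perineal tumors lay above the trunk tumors in 2205 genes and below them in 830.

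Whether the profiles as wholes sorted by site could not be decided by a permutation test on so few tumors. Pearson's r of log2 CPM was 0.906 between perineal tumors 27 and 36, against a mean of 0.953 over the 6 trunk pairs and 0.921 over the 8 pairs of a perineal with a trunk tumor. The mean r within sites minus that between sites was 0.0258, with an exact permutation p of 0.133 (two-sided). The smallest p that the 15 ways of choosing 2 of 6 tumors allow is 0.0667. That lies above the threshold used for genes, so no conclusion on sorting by site was drawn from this test. Perineal tumor 27 was most like trunk tumor 29 of its own line (r = 0.975). Tumor 36 had r of 0.877 to 0.891 with the trunk tumors and scored 149.6 on the first principal component, which held 47.8% of the variance, whereas tumor 27 scored -2.06 and the trunk tumors from -55.3 to -19.3. Without tumor 36 the difference between pairs turned negative, at -0.00543.

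**Figure D1:**
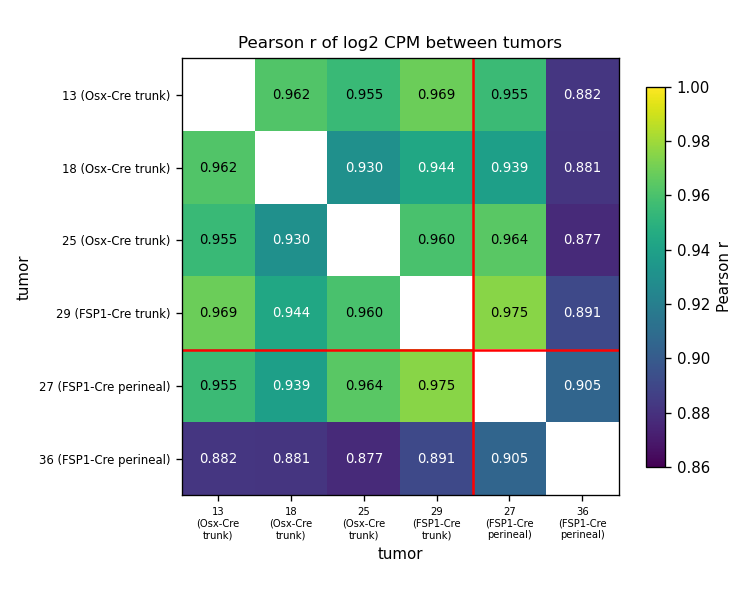
Pearson's r of log2 CPM between every pair of tumors, over the 16971 genes tested, with red lines between trunk and perineal tumors. Tumor 36 had its highest r, 0.906, with tumor 27, whose own highest r, 0.975, was with trunk tumor 29.

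Of the 110 higher and 3 lower genes at least 2-fold beyond every trunk tumor, the first 12 in each direction by edgeR p-value were named, leaving out predicted genes. They comprised 12 higher genes, Aox4, Nr4a1, Angptl7, Fosb, Cyp2e1, Igfbp5, Plin1, Sod3, Hp, Fos, F5 and Egr1, and 2 lower genes, Htra4 and Tubb2b. Angptl7, Fosb, Cyp2e1 and Plin1 had trunk means of 0.672, 0.543, 0.560 and 0.0925 CPM, so they reached a mean of 1 CPM only through the perineal tumors. None of the 14 passed the edgeR test (adjusted p = 0.263 for each, and 1.00 for each against tumor 29), and all 14 passed with DESeq2. Set against tumor 29 alone, the log2 differences lay between 1.66 and 6.23 for the higher genes and were -1.46 for Htra4 and -1.28 for Tubb2b.

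Aox4, an aldehyde oxidase (chr1:58210397-58268596, mm10), ranked first. Its level was 2.20, 1.53, 0.339 and 1.59 CPM in the trunk tumors and 158.5 and 80.6 CPM in the perineal tumors. The log2 difference was 6.41 (SE 0.67, n = 2 against 4 tumors) in edgeR, with an adjusted p of 2.43e-18 in DESeq2, and without tumor 36 the log2 difference in DESeq2 was 6.78. Igfbp5, which encodes a secreted protein that binds insulin-like growth factors (chr1:72858065-72874865), stood at 16.01, 35.1, 45.4 and 54.7 CPM in trunk tumors and at 316.5 and 245.2 CPM in perineal tumors, a log2 difference of 2.89 (SE 0.44). In both genes the level of tumor 27 exceeded that of tumor 36, so neither rested on tumor 36.

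F5, coagulation factor V, was likewise higher in tumor 27 (60.9 CPM) than in tumor 36 (29.9 CPM), and its trunk levels were 11.8, 10.7, 12.4 and 14.4 CPM. Sod3, the extracellular superoxide dismutase, was at 7.67, 16.9, 10.6 and 13.5 CPM in the trunk and at 43.6 and 66.8 CPM in the perineal tumors. Hp, which encodes the hemoglobin-binding plasma protein haptoglobin, was at 1.91, 5.69, 2.12 and 2.67 CPM against 20.1 and 86.5 CPM. By the rule that chose these genes, the lower perineal level lay at least 2-fold above the highest trunk level in each.

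Angptl7, a secreted angiopoietin-like protein, had trunk levels of 0.746, 0.675, 0.650 and 0.616 CPM and perineal levels of 4.15 and 15.5 CPM. Cyp2e1, a cytochrome P450 that oxidizes ethanol, had 0.746, 0.532, 0.424 and 0.539 CPM against 3.59 and 5.004 CPM. Downward, Htra4, a secreted serine protease, was at 18.0, 17.3, 13.5 and 13.6 CPM in trunk and at 4.64 and 5.28 CPM in perineal tumors, a log2 difference of -1.65 (SE 0.29). Tubb2b, a β-tubulin, was at 23.8, 28.0, 36.2 and 22.8 CPM against 10.5 and 8.30 CPM, a log2 difference of -1.56 (SE 0.30).

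**Figure D2:**
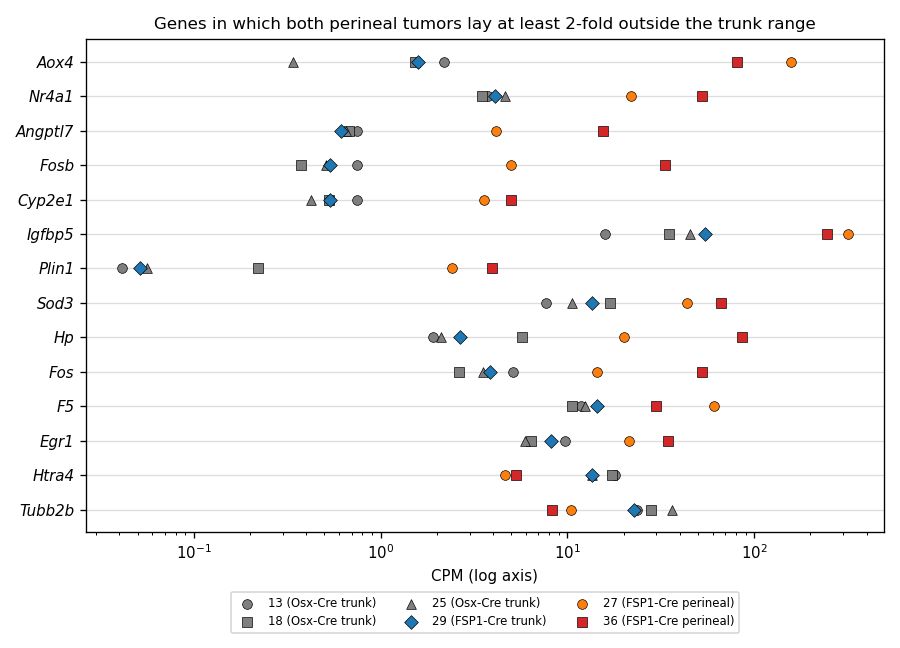
CPM on a log axis of 14 of the genes in which both perineal tumors lay at least 2-fold beyond every trunk tumor, the first by edgeR p, with 1 point per tumor and no error bars. The orange and red points (tumors 27 and 36) lie to the right of all trunk points for 12 genes, as for Aox4 at 158.5 and 80.6 CPM, and to the left for Htra4 and Tubb2b.

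Immediate early genes, which are transcribed within minutes of a stimulus without new protein synthesis, made up 4 of these 12 higher genes. The list of 24 such genes was drawn up after Fos, Fosb, Nr4a1 and Egr1 had been seen, so its direction is not independent evidence. DESeq2 called 9 of the 23 tested members higher, against 3.34% of all genes. Both perineal tumors lay above all trunk tumors in 16 (69.6%, against 10.2% of all genes) and below in 0. Leaving out Fosl1, which passed the filter only through perineal tumors, the count was 15 of 22 (68.2%, against 9.43%). The median log2 difference was 0.86 against trunk tumors and 0.89 against tumor 29, beside -0.020 over all genes in the first comparison.

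Fosb, which encodes a partner of JUN proteins in the transcription factor AP-1 (chr7:19302696-19310045), was at 0.746, 0.376, 0.509 and 0.539 CPM in trunk and at 4.97 and 33.5 CPM in perineal tumors, a log2 difference of 5.16 (SE 0.71). Fos (chr12:85473901-85477270) was at 5.10, 2.65, 3.53 and 3.88 CPM against 14.5 and 52.7 CPM, a log2 difference of 3.15 (SE 0.50). Nr4a1, an orphan nuclear receptor (chr15:101266846-101274794), was at 3.77, 3.49, 4.63 and 4.08 CPM against 21.9 and 52.7 CPM, a log2 difference of 3.22 (SE 0.36). By the rule that chose them, all 4 trunk tumors lay below tumor 27 in these 3 genes, while the level of tumor 36 exceeded that of tumor 27.

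The zinc finger factors Egr1 and Egr2 followed the same order. Egr1 was at 9.70, 6.36, 5.96 and 8.14 CPM in trunk and at 21.4 and 34.4 CPM in perineal tumors, and Egr2 at 1.78, 1.62, 1.19 and 2.70 CPM against 6.33 and 11.5 CPM. Klf4 was far higher in tumor 36 (232.0 CPM) than in tumor 27 (27.1 CPM), which lay just above trunk tumor 29 (23.8 CPM). Some members overlapped between the sites: Junb was at 124.7, 96.0, 127.8 and 111.9 CPM against 119.1 and 102.0 CPM, and Myc at 92.8, 59.5, 97.6 and 109.1 CPM against 95.3 and 50.01 CPM.

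Since Fos, Fosb and Nr4a1 were high together in both perineal tumors, the bases upstream of their starts are shown, as 250 bases from RefSeq on GRCm38.p6, 5′ to 3′ on the strand of each gene. Capitals mark TGACG or its reverse complement CGTCA, the core of the sites that CREB and ATF proteins bind, searched on both strands. Fos (chr12:85473640-85473889, plus strand) held 2 matches, Fosb (chr7:19310046-19310295, minus strand) 1 and Nr4a1 (chr15:101266596-101266845, plus strand) 4.
Fos: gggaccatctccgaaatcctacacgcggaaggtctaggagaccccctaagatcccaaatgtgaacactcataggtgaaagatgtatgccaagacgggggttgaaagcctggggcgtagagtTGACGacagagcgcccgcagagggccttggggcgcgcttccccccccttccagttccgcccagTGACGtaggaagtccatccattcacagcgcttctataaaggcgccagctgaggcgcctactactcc
Fosb: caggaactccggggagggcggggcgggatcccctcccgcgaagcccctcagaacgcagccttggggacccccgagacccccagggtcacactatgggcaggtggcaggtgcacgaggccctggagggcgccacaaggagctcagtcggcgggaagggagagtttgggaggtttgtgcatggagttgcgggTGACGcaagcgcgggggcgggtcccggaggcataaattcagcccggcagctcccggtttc
Nr4a1: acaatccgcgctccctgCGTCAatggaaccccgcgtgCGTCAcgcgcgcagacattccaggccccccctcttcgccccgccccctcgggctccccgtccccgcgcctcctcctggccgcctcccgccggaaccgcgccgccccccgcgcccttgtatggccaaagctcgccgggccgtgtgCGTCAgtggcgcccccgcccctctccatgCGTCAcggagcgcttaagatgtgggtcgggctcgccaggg
Of 32851 such windows in the RefSeq table, 17.8% held at least 1 match and 0.137% held 4 or more. Among 23 windows of 19 immediate early genes, 15 (65.2%) held at least 1 and 3 (13%) held 4 or more, with windows of the same gene overlapping in part. A match describes the letters and not the binding of a factor.

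Adipocyte genes were the list in which both perineal tumors stood out most evenly. Of 17 tested genes, both perineal tumors lay above all trunk tumors in 15 (88.2%, against 10.2% of all genes), by at least 2-fold in 11. These 11 had a mean of at least 1 CPM over all tumors, which Plin1 reached only through the perineal tumors. DESeq2 called 12 higher, against 3.34% of all genes, and 0 lower, while edgeR called 0. The median log2 difference was 3.61 against trunk tumors and 4.04 against tumor 29. The median level relative to the trunk mean was 2.86 in tumor 27 and 4.26 in tumor 36 on the log2 scale, and from -0.60 to 0.63 among trunk tumors. Without tumor 36 the median log2 difference was 2.46.

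Plin1, the coat protein of the adipocyte lipid droplet, was at 0.0415, 0.221, 0.0565 and 0.0514 CPM in trunk and at 2.43 and 3.95 CPM in perineal tumors, a log2 difference of 4.9998 (SE 0.77). Cidec, which promotes fusion of lipid droplets, was at 0.0415, 0.623, 0.367 and 0.308 CPM against 5.10 and 13.0 CPM, a log2 difference of 4.72 (SE 0.85). Pparg, the nuclear receptor that drives adipocyte differentiation, was at 0.622, 0.882, 0.396 and 0.642 CPM against 2.86 and 20.5 CPM, a log2 difference of 4.19 (SE 0.73). These 3 genes did not overlap between the sites, and in each tumor 36 was the higher of the perineal pair.

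The adipokines showed the same order at low levels. Adipoq, adiponectin, was at 0.290, 1.39, 0.226 and 0.462 CPM in trunk and at 3.72 and 9.26 CPM in perineal tumors, and Lep, leptin, at 0.207, 0.285, 0.509 and 0.0770 CPM against 1.93 and 4.69 CPM. Fabp4, a carrier of fatty acids, was at 1.95, 10.2, 2.06 and 2.41 CPM against 23.0 and 96.6 CPM. The lipoprotein lipase gene Lpl overlapped, at 46.0, 17.6, 48.9 and 21.8 CPM against 27.5 and 69.1 CPM, as did Adrb3. Plin1 reached the filter's level in 1 trunk tumor only, and without it 14 of 16 genes (87.5%, against 9.43%) lay above the trunk range in both. Summed over the list, the level was 52.7 to 76.8 CPM in trunk tumors and 161.6 and 443.9 CPM in perineal tumors, and among the trunk tumors only Retn in tumor 13 was at 0. Whether fat tissue near the perineal tumors took part in this was not tested.

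**Figure D3:**
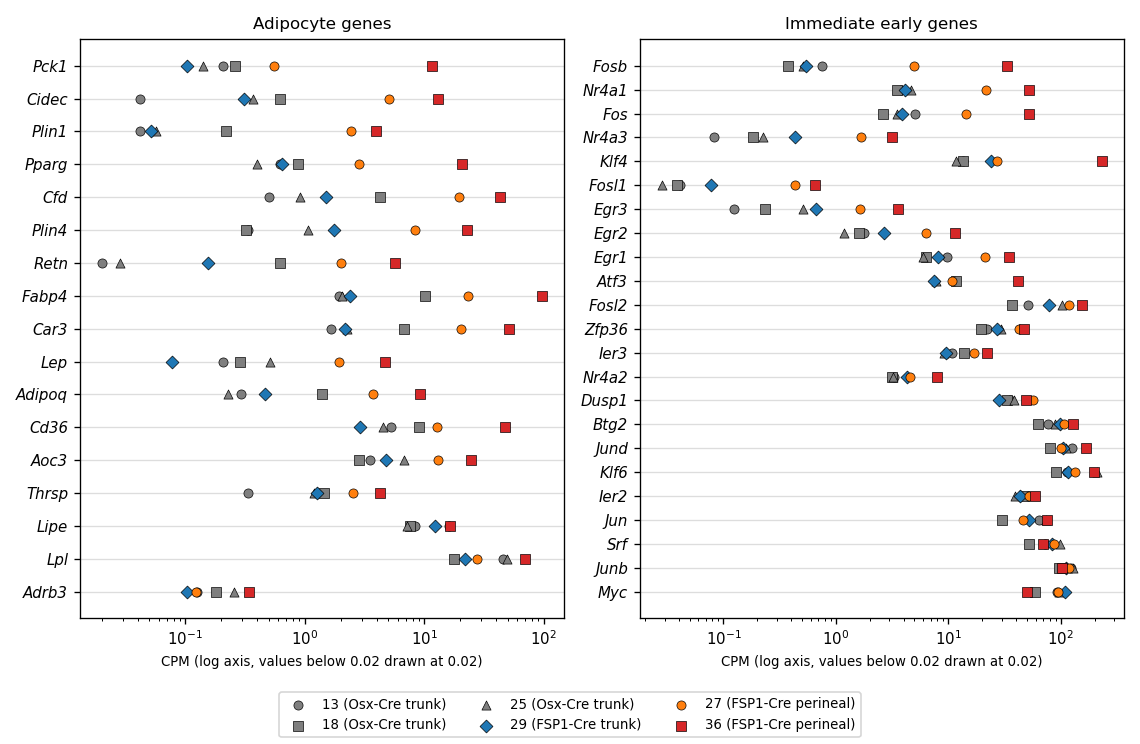
CPM on a log axis of the 17 adipocyte genes (left) and the 23 immediate early genes tested (right), with 1 point per tumor, no error bars, and values below 0.02 CPM drawn at 0.02. Both perineal tumors lie to the right of all trunk tumors in 15 adipocyte and 16 immediate early genes, while Lpl and Junb overlap.

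Neutrophil genes were the immune list with the most DESeq2 calls. Both perineal tumors lay above all trunk tumors in 9 of 16 tested genes (56.2%, against 10.2% of all genes). DESeq2 called 7 higher, against 3.34% of all genes, and edgeR 0. The median log2 difference was 1.35, or 1.70 against tumor 29. Among the 14 that reached the filter's level in 2 trunk tumors, 7 lay above the trunk range in both (50%, against 9.43%). S100a9, a subunit of calprotectin that wounded keratinocytes also make and that is on the wound keratinocyte list too, was at 22.6, 17.9, 4.94 and 15.2 CPM in trunk and at 74.6 and 267.8 CPM in perineal tumors, a log2 difference of 3.499 (SE 0.65). Csf3r, the receptor for granulocyte colony-stimulating factor, was at 11.7, 11.4, 9.15 and 9.22 CPM against 19.4 and 24.1 CPM, a log2 difference of 1.07 (SE 0.25). Cxcr2, the neutrophil chemokine receptor, was at 3.32, 3.55, 2.35 and 3.70 CPM against 6.14 and 13.9 CPM.

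Granule genes of the list differed among themselves. Mpo was at 1.20, 0.999, 0.989 and 1.31 CPM in trunk and at 1.90 and 0.622 CPM in perineal tumors, and Elane was at or near 0 in all 6. Camp was at 0.249, 0.830, 0 and 0.205 CPM against 0.246 and 0.466 CPM, and Ltf at 0.995, 3.65, 5.396 and 3.60 CPM against 3.32 and 6.25 CPM. Ngp was at 0.0415, 0.169, 0.0283 and 0.0257 CPM against 0.184 and 1.12 CPM, and it passed the filter only through perineal tumors, as did Cxcr1. The 4 tested blood genes summed to 64.3 to 103.2 CPM in trunk tumors and to 88.6 and 76.6 CPM in perineal tumors, and 0 of them lay outside the trunk range in both perineal tumors. The sources used here describe FSP1-Cre;NT3 tumors as often ulcerated but do not say which of these 3 were, so that the part of ulceration was not tested.

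Of 14 macrophage genes, both perineal tumors lay above the trunk tumors in 5 (35.7%, against 10.2%). DESeq2 called 4 higher, against 3.34% of all genes, while edgeR called 0. The 4 were genes of tissue-resident macrophages or general myeloid genes. The mannose receptor gene Mrc1 was at 16.3, 42.4, 18.9 and 45.9 CPM in trunk and at 114.1 and 241.6 CPM in perineal tumors, a log2 difference of 2.53 (SE 0.50). Cd163, a receptor that takes up haptoglobin bound to hemoglobin, was at 2.36, 6.93, 6.67 and 5.50 CPM against 16.2 and 58.9 CPM, and Siglec1, a sialic acid receptor, at 1.49, 4.44, 3.59 and 4.57 CPM against 14.03 and 13.5 CPM. Itgam, an integrin subunit of myeloid cells, completed the 4. Lyz2, lysozyme, lay the other way, at 2278, 1313, 832.7 and 835.9 CPM against 677.2 and 696.4 CPM, with a log2 difference of -0.94 (SE 0.48) that passed neither test. The median log2 difference of the list was 0.32, and the general macrophage gene Cd68 overlapped between sites.

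Of 17 T and NK cell genes, 5 lay above the trunk range in both perineal tumors (29.4%, against 10.2%), at a median log2 difference of 0.16 over the list. Il2ra, the high-affinity interleukin 2 receptor chain, was at 5.89, 11.2, 7.12 and 6.19 CPM in trunk and at 18.3 and 19.2 CPM in perineal tumors, with an adjusted p of 0.023 in DESeq2. Foxp3, the factor that defines regulatory T cells, was at 1.12, 3.02, 1.19 and 3.47 CPM against 7.98 and 7.40 CPM, and Ctla4, an inhibitory receptor on the same cells, at 0.746, 3.83, 0.339 and 1.13 CPM against 6.45 and 7.68 CPM, neither called. The cytotoxic genes Gzmb and Prf1 overlapped. Ciita, the factor that switches on MHC class II genes, was at 9.62, 17.7, 16.4 and 22.7 CPM against 54.0 and 51.3 CPM, and it was the only gene that DESeq2 called of the 16 on the dendritic and Langerhans cell list.

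Mast cell genes showed how site and line intertwined. Both perineal tumors lay above the trunk tumors in 7 of 10 genes (70%, against 10.2%), but trunk tumor 29 lay close below them. Cpa3, a protease of mast cell granules, was at 20.7, 20.8, 1.44 and 91.4 CPM in trunk and at 102.1 and 102.5 CPM in perineal tumors. The median log2 difference of the list was 1.67 against all trunk tumors and 0.39 against tumor 29. Hdc, the enzyme that makes histamine, did stand apart from tumor 29, at 12.2, 13.0, 8.34 and 12.04 CPM against 26.9 and 24.8 CPM (log2 difference 1.18, SE 0.26), and was the only mast cell gene called by DESeq2.

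Some stromal genes separated the perineal from the trunk tumors, and others did not. Of 21 fibroblast genes, both perineal tumors lay above the trunk tumors in 5 (23.8%, against 10.2%). DESeq2 called 3 higher, against 3.34% of all genes, and edgeR 0. Pdgfra, a growth factor receptor on fibroblasts, was at 20.3, 29.9, 14.9 and 41.4 CPM in trunk and at 98.5 and 109.2 CPM in perineal tumors, a log2 difference of 1.96 (SE 0.38). Pi16, a marker of fibroblasts that surround vessels and of fibroblast progenitors, was at 2.65, 17.0, 4.21 and 13.3 CPM against 55.3 and 62.2 CPM, and Fbn1, fibrillin, at 123.5, 136.7, 137.7 and 177.0 CPM against 350.0 and 260.9 CPM. In contrast, Col1a1 was highest in trunk tumor 29, at 4005 CPM, against 884.4 to 1534 CPM in the Osx-Cre;NT3 tumors and 2664 and 2380 CPM in the perineal tumors. The list median was 0.58 against all trunk tumors and 0.077 against tumor 29.

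Matrix-remodeling genes differed also from tumor 29. Both perineal tumors lay above the trunk tumors in 9 of 21 genes (42.9%, against 10.2%), none by 2-fold, and the median log2 difference was 0.79, or 1.02 against tumor 29. Lox, which crosslinks collagen and elastin, was at 28.0, 53.0, 30.6 and 43.1 CPM in trunk and at 94.3 and 98.4 CPM in perineal tumors, a log2 difference of 1.32 (SE 0.29). The fibronectin gene Fn1 was at 179.1, 138.8, 278.3 and 214.7 CPM against 514.5 and 586.2 CPM. DESeq2 called Lox and Adamts1, among others, on this list, while Fn1 was called with Zeb1 and Zeb2 on the list of epithelial-mesenchymal transition genes.

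Of 14 endothelial genes, 5 lay above the trunk range in both perineal tumors (35.7%, against 10.2%) and 6 more in tumor 27 alone (against 5.59% of all genes), with 0 called by edgeR or DESeq2. Pecam1, an adhesion molecule of vessels, was at 84.5, 50.1, 90.6 and 100.8 CPM in trunk and at 147.1 and 129.5 CPM in perineal tumors. Prox1, which specifies lymphatic vessels, was at 0.249, 0.285, 0.311 and 1.00 CPM against 2.06 and 2.36 CPM. Tumor 29 was the highest trunk tumor in both genes.

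Posterior HOX genes are used at caudal positions, and here their pattern was uneven across the perineal pair. Of 11 tested genes, both perineal tumors lay above the trunk tumors in 5 (45.5%, against 10.2%), with 3 called by DESeq2 and 0 by edgeR. The 3 called, Hoxa11, Hoxc11 and Hoxd11, passed the filter only through perineal tumors, and of the 8 genes that reached its level in the trunk tumors, 2 lay above the trunk range in both (25%, against 9.43%) and 0 were called, so the list gives no support for a difference by site. Hoxa11 was at 0, 0.0130, 0.0565 and 0 CPM in trunk and at 0.768 and 3.70 CPM in perineal tumors. Hoxc11 was at 0.0415, 0.0908, 0.226 and 0.103 CPM against 0.921 and 0.746 CPM, and Hoxd11 at 0.0415, 0, 0.0848 and 0.0257 CPM against 0.246 and 4.82 CPM. In tumor 27 all 3 were under 1 CPM.

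Of the genes nearest the 5′ ends, 4 were high only in tumor 36 and failed the filter on low counts, so that they were not tested. Hoxb13 had 10274 counts in tumor 36 (159.7 CPM), where it had 4 in tumor 27 and 4 to 12 in the trunk tumors. Hoxd13 had 4284 counts in tumor 36 (66.6 CPM) and at most 4 in any other tumor, and Hoxa13 had 440 and Hoxd12 330, with at most 4 and 2 elsewhere. In the HoxC cluster, Hoxc13 was tested and was at 0.166, 0.506, 0.509 and 0.0257 CPM in trunk and at 0.215 and 3.02 CPM in perineal tumors, while Hoxc12 had 2 counts in tumor 25 and 0 elsewhere. Hoxa10, further from the 5′ end, overlapped, at 35.6, 43.6, 28.0 and 24.8 CPM in trunk and at 29.8 and 30.3 CPM in perineal tumors. Of 21 tested anterior and central HOX genes, 1 lay above the trunk range in both perineal tumors (4.76%, against 10.2%).

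Other regulators of position separated in part. Of 29 tested, both perineal tumors lay above the trunk tumors in 8 (27.6%, against 10.2%), and DESeq2 called Isl1 and Foxf2. Among the 25 that reached the filter's level in 2 trunk tumors the count was 5 (20%, against 9.43%). Isl1, a LIM homeodomain factor of the hindlimb field and the genital tubercle, was at 0.290, 0.0908, 0.0283 and 0.308 CPM in trunk and at 2.09 and 5.75 CPM in perineal tumors, a log2 difference of 4.46 (SE 0.91). Foxf2, a forkhead factor of mesenchyme around the gut, was at 0.539, 0.246, 0.254 and 0.360 CPM against 0.891 and 6.40 CPM. Pitx1, a hindlimb factor, was high at both sites and lowest in tumor 36, at 407.2, 237.5, 343.2 and 489.3 CPM against 445.2 and 145.6 CPM.

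**Figure D4:**
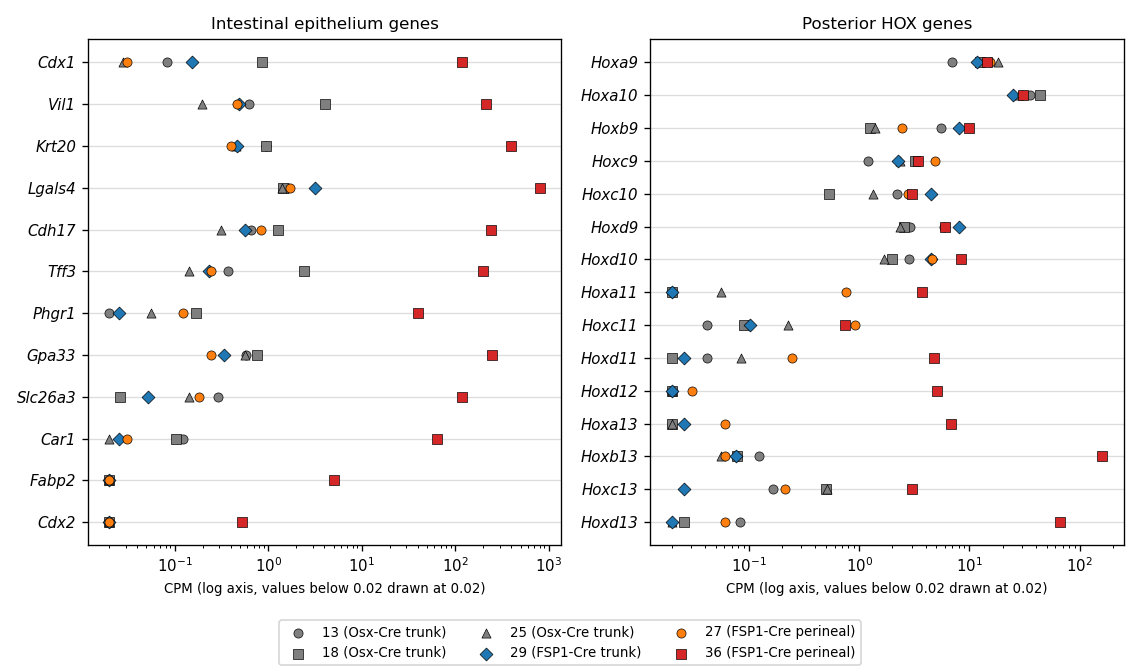
CPM on a log axis of the intestinal epithelium genes (left) and the posterior HOX genes (right), including those not tested, with 1 point per tumor, no error bars, and values below 0.02 CPM drawn at 0.02. Tumor 36 (red) stands alone for all the intestinal genes and for Hoxb13 at 159.7 CPM, whereas tumor 27 (orange) also lies right of the trunk tumors for Hoxa11 at 0.768 CPM and Hoxc11 at 0.921 CPM.

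Of 13 tested sex steroid receptors and responsive genes, 5 lay above the trunk range in both perineal tumors (38.5%, against 10.2%), Igfbp5 among them, with 3 called by DESeq2 and 0 by edgeR. Srd5a2, which converts testosterone to dihydrotestosterone, was at 0.0829, 0.0130, 0 and 0.0514 CPM in trunk and at 0.860 and 3.45 CPM in perineal tumors, though it passed the filter only through perineal tumors, as Esr2 did, and without such genes 3 of 11 (27.3%, against 9.43%) lay above the trunk range in both. Greb1, an estrogen receptor target, was at 0.207, 0.389, 0.367 and 0.462 CPM against 1.35 and 1.49 CPM, and Pgr, the progesterone receptor, at 0.0415, 0.272, 0.0283 and 0.334 CPM against 2.86 and 0.777 CPM. Esr1, an estrogen receptor, did not separate the sites, since trunk tumor 29 was at 6.78 CPM, between tumors 27 (9.58 CPM) and 36 (6.25 CPM) and well above 1.29, 1.60 and 0.819 CPM in the other trunk tumors.

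Of 18 tested mammary luminal genes, 7 lay above the trunk range in both perineal tumors (38.9%, against 10.2%), or 5 of the 15 that reached the filter's level in 2 trunk tumors (33.3%, against 9.43%). DESeq2 called 3 higher, against 3.34% of all genes. Of these 3, 2 reached that level, as did 501 of the 566 genes called higher over all genes. Kit, a receptor tyrosine kinase that mast cells also carry, was at 8.003, 10.5, 10.8 and 18.7 CPM in trunk and at 31.9 and 29.0 CPM in perineal tumors. Csn2, β-casein, overlapped, at 209.8, 82.2, 348.4 and 111.2 CPM against 114.7 and 56.2 CPM.

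The NF-κB pathway genes, on which NT3 acts, were not higher in perineal tumors. Of 21 subunits and regulators, 1 lay above the trunk range in both perineal tumors (4.76%, against 10.2%) and 2 below (9.52%, against 9.6%), and 0 were called by edgeR or DESeq2. Tumor 36 alone lay below the trunk range in 10, against 16.8% of all genes. The p100 precursor gene Nfkb2 was at 432.5, 307.2, 584.4 and 483.8 CPM in trunk and at 471.6 and 189.2 CPM in perineal tumors, and Relb at 229.8, 194.8, 220.9 and 209.4 CPM against 200.6 and 84.8 CPM. Map3k14, the gene of NIK, whose entry cannot be divided here between the native gene and the transgene, was at 54.7, 38.6, 118.9 and 90.9 CPM against 102.6 and 43.3 CPM. Birc2 was below the trunk range in both, at 398.2, 391.3, 335.8 and 366.1 CPM against 293.6 and 134.8 CPM.

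Cytokine and adhesion genes known as NF-κB targets gave a different count, with 8 of 28 above the trunk range in both perineal tumors (28.6%, against 10.2%) and 4 called higher by DESeq2, 0 by edgeR. Cxcl5, a neutrophil chemoattractant, was at 0.166, 0.843, 0.283 and 0.231 CPM in trunk and at 2.70 and 19.2 CPM in perineal tumors, and Cxcl2, of the same family, at 0.0829, 0.350, 0.283 and 0.103 CPM against 3.99 and 1.49 CPM. Cxcl12, a chemokine of stromal cells, was at 4.11, 10.9, 6.19 and 17.5 CPM against 48.0 and 164.8 CPM. Il6, interleukin 6, was at 0.332, 0.843, 0.170 and 0.205 CPM against 2.76 and 3.02 CPM, a log2 difference of 2.88 (SE 0.70). Ccl20, a chemokine of epithelial cells, was at 441.1, 389.5 and 369.0 CPM in the FSP1-Cre;NT3 tumors 27, 29 and 36. In the Osx-Cre;NT3 tumors 13, 18 and 25 it was at 956.9, 1429 and 1264 CPM. Its log2 difference was -1.32 (SE 0.53) against all trunk tumors and 0.057 (SE 0.40) against tumor 29. Whether line or latency had a part in this was not tested.

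Among developmental signals, 9 of 43 genes lay above the trunk range in both perineal tumors (20.9%, against 10.2%), or 7 of the 41 that reached the filter's level in 2 trunk tumors (17.1%, against 9.43%). DESeq2 called 5 higher, against 3.34% of all genes. Wnt5a, a Wnt ligand of mesenchyme, was at 15.01, 16.7, 17.2 and 17.9 CPM in trunk and at 39.5 and 35.1 CPM in perineal tumors. Grem1, a secreted BMP antagonist, was at 5.68, 5.92, 5.28 and 9.48 CPM against 15.8 and 21.5 CPM. The other 3, Bmp4 and the EGF receptor ligands Areg and Ereg, of which the latter pair passed the filter only through perineal tumors, were much higher in tumor 36 (15.1, 12.7 and 9.79 CPM) than in tumor 27, where Bmp4 was at 2.52 and Ereg at 1.72 CPM.

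Basal keratinocyte genes did not separate by site. Krt5 was at 6096, 3294, 5940 and 5915 CPM in trunk and at 4219 and 2576 CPM in perineal tumors (log2 difference -0.64, SE 0.42). Krt14 was lower in both perineal tumors, at 4110, 3494, 2770 and 3767 CPM against 2433 and 1628 CPM, but its log2 difference of -0.80 (SE 0.35) passed neither test. Of the 12 genes, 0 lay above (against 10.2% of all genes) and 1 below (8.33%, against 9.6%) the trunk range in both. Proliferation genes had a median log2 difference of -0.067. In both perineal tumors 0 of 21 lay above the trunk range (against 10.2%) and 0 below (against 9.6%). Hypoxia and glycolysis genes had a median of -0.34, with 0 of 18 above (against 10.2%) and 2 below (11.1%, against 9.6%) the trunk range in both.

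**Figure D5:**
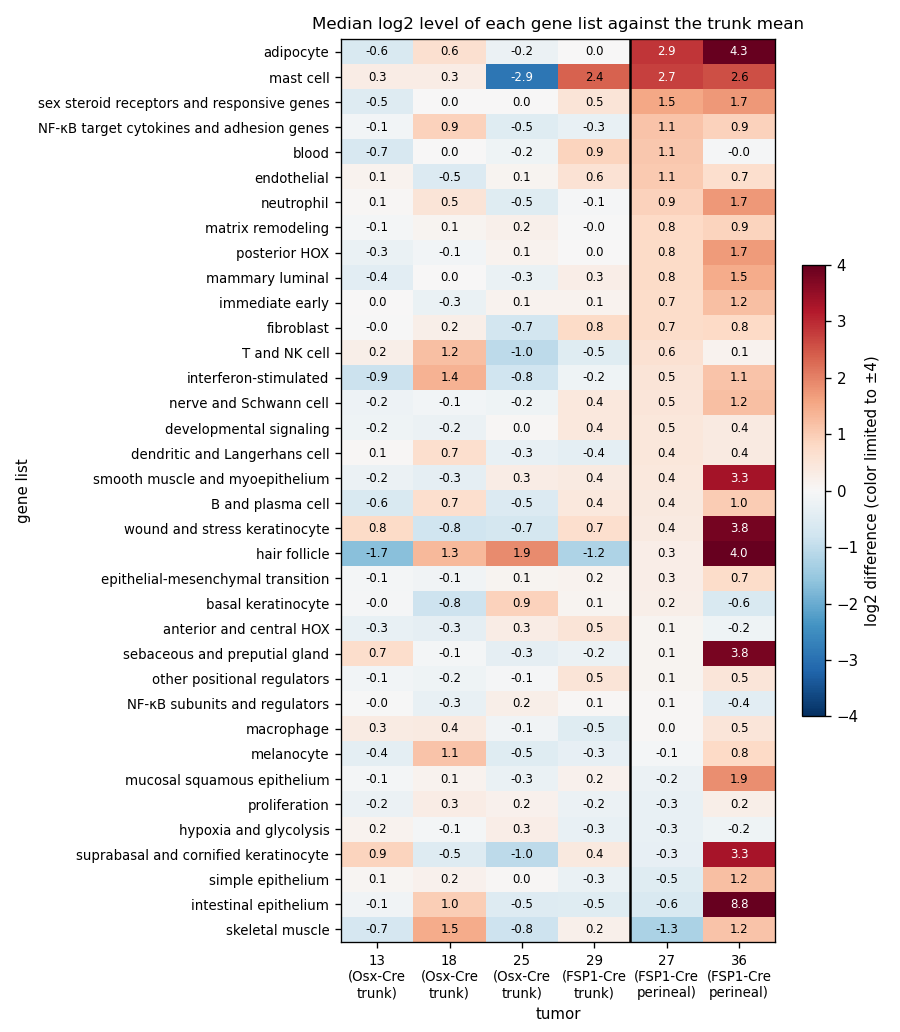
Median log2 level of each gene list in each tumor against the mean of the 4 trunk tumors, in rows ordered by tumor 27, with color limited to ±4 and values written in the cells. Adipocyte genes are high in both perineal tumors (2.9 and 4.3), mast cell genes also in trunk tumor 29 (2.4), and intestinal epithelium genes in tumor 36 alone (8.8).

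Tumor 36 carried groups of genes that tumor 27 did not. Of all 23358 entries, 242 were at 10 CPM or more in tumor 36 and at least 10-fold above every other tumor, and 37 of these had failed the filter on low counts. The same count was 0 in tumors 25 and 27, 1 in tumor 13, 2 in tumor 18 and 3 in tumor 29.

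Intestinal epithelium genes were the clearest of these groups. In all 9 tested genes tumor 36 alone lay above the trunk range, with a median level 8.79 above the trunk mean on the log2 scale, while tumor 27 was at -0.61. Summed over the 9, the level was 3.31 to 11.9 CPM in trunk tumors, 4.24 CPM in tumor 27 and 2377 CPM in tumor 36. Cdx1, a homeodomain factor of the intestine, was at 0.0829, 0.856, 0.0283 and 0.154 CPM in trunk and at 0.0307 and 118.5 CPM in perineal tumors. Lgals4, a galectin of the gut lining, was at 803.7 CPM in tumor 36 and at most 3.16 CPM elsewhere, Krt20, a keratin of differentiated gut epithelium, at 396.3 and at most 0.960 CPM, and Vil1, villin of the brush border, at 211.5 and at most 4.05 CPM. DESeq2 called all 9 as higher in perineal tumors, although tumor 27 did not carry them, and without tumor 36 the median log2 difference was -0.82. The genes Car1, Fabp2 and Cdx2 failed the filter, with 4070, 328 and 34 counts in tumor 36 and at most 16, 0 and 2 elsewhere. Further genes of the gut lining, chosen after their values had been seen, had the same pattern: the mucin gene Muc13 was at 894.5 CPM in tumor 36 and at most 0.921 CPM elsewhere, the immunoglobulin transporter gene Pigr at 1409 and at most 2.09 CPM, and the nuclear receptor gene Hnf4a at 274.0 and at most 0.506 CPM. Whether tissue of the anal canal or rectum was part of this sample was not tested.

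Smooth muscle genes were another such group, with 12 of 17 above the trunk range in tumor 36 alone (against 17.1% of all genes) and 4 in both (23.5%, against 10.2%), and a median of 3.33 in tumor 36 and 0.43 in tumor 27. Des, desmin, was at 11.98, 17.9, 9.55 and 13.0 CPM in trunk and at 15.4 and 291.4 CPM in perineal tumors. Actg2, an actin of visceral smooth muscle, was at 6.76, 5.95, 11.5 and 5.44 CPM against 7.03 and 347.3 CPM. The list summed to 599.9 to 1006 CPM in trunk tumors, 771.5 CPM in tumor 27 and 4089 CPM in tumor 36.

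Genes of skin appendages and of the upper epidermis also stood out in tumor 36 alone. Tumor 36 alone lay above the trunk range in 19 of 21 hair follicle genes, 21 of 23 suprabasal and cornified keratinocyte genes, 10 of 14 sebaceous and preputial gland genes and 9 of 13 wound and stress keratinocyte genes, against 17.1% of all genes. The medians in tumor 36 were 4.02, 3.31, 3.80 and 3.83, and in tumor 27 they were 0.26, -0.34, 0.10 and 0.36. Summed levels of the first 3 lists were highest in tumor 36, at 702.6, 1524 and 1050 CPM. The wound and stress list summed to 2050 CPM in tumor 36, below the 2251 to 3681 CPM of the trunk tumors. Elovl3, a fatty acid elongase of sebaceous glands, was at 0.746, 0.246, 0.480 and 0.128 CPM in trunk and at 0.338 and 25.8 CPM in perineal tumors. Hair follicle genes also varied among trunk tumors, whose medians ran from -1.66 in tumor 13 to 1.89 in tumor 25, and DESeq2 called 0 of them.

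Simple epithelial keratins parted from each other. Krt8 and Krt19, keratins of glandular and other simple epithelia, reached 2236 and 1085 CPM in tumor 36, while tumor 27 was at 243.3 and 17.3 CPM and the trunk tumors at 252.6 to 430.2 and 11.8 to 43.3 CPM. Krt7, a keratin of ducts and glands, was higher in both perineal tumors and more so in tumor 27, at 83.4, 14.4, 17.0 and 39.8 CPM in trunk and at 219.3 and 98.2 CPM in perineal tumors. The mucosal squamous list, which holds genes of the lining of the mouth, esophagus and anal canal, had 10 of 16 genes above the trunk range in tumor 36 alone (against 17.1% of all genes), at a median of 1.87 in tumor 36 and -0.23 in tumor 27. Summed over its genes, the list was at 74.06 CPM in tumor 36, within the 69.6 to 131.6 CPM of the trunk tumors. Its member Krt13 overlapped, at 0.871, 2.52, 0.283 and 1.34 CPM against 1.90 and 2.24 CPM, and Mal, a membrane protein of apical transport, was the only member that DESeq2 called lower, at 89.2, 79.5, 47.8 and 47.8 CPM against 31.7 and 13.8 CPM.

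Left with tumor 27 as the only perineal library, whose spread is then assumed to be that of the trunk tumors, DESeq2 compared that tumor with the trunk and not the site. All 9 genes that DESeq2 then called higher were among the 566 called with both perineal tumors, namely Aox4, F5, Nr4a1, Fosb, Angptl7, Igfbp5, Cyp2e1, Cxcl2 and Epyc. Epyc, a small proteoglycan of cartilage, was named after its values had been seen and was at 0, 0.246, 0.0848 and 0.308 CPM in trunk and at 14.4 and 3.05 CPM in perineal tumors. Of the 5 called lower, Htra4 was low in both perineal tumors, whereas Acta1, the skeletal muscle actin, was not. Acta1 was at 6.39, 21.3, 5.31 and 10.9 CPM in trunk, 0.983 CPM in tumor 27 and 35.6 CPM in tumor 36.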

How the data were processed

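RNA from 6 NT3 tumors, 2 perineal and 4 trunk, was sequenced, and groups were taken from the sample labels. The authors deposited raw read counts per gene on mm10, beside RPKM values, from which nothing is reported here. The paper names HISAT2 and featureCounts, whereas the submitters' processing notes name bcl2fastq, TopHat2 (2.0.6) and HTSeq, and which made the table was not settled. Annotation and strandedness are not given in the sources used here. Every deposited count was even, so a sequenced fragment may have been counted at both ends.

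Counts were filtered with filterByExpr by site, scaled by TMM and tested with glmQLFit and glmQLFTest of edgeR 4.0.16 in R 4.3.3, with Benjamini-Hochberg adjustment over 16971 genes and a threshold of 0.05. The contrast with tumor 29 came from a fit with 3 groups over all 6 tumors. DESeq2 1.42.0, other scalings and filters, a latency covariate and leaving out each tumor were alternatives. DESeq2 gave no adjusted p for genes it filtered out. Similarity used log2 CPM with a prior count of 2. The tests were tested on simulated data. There DESeq2 called more unchanged genes than edgeR did, and edgeR missed more of the changed genes. Calls that DESeq2 made and edgeR did not are therefore less certain. Repeated symbols (69 entries) were kept apart. Of 619 genes on the lists, 612 were found, 10 of them under another symbol. Named genes were list members and those with both perineal tumors at least 2-fold beyond the nearest trunk tumor, the first 12 in each direction by edgeR p, leaving out predicted and RNA genes. Some genes of the lists are counted but not reported one by one. Members and lists were chosen with earlier results of these data known. Since libraries carried no molecular identifiers, limits from counts cover counting error only.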

Additional observations from a re-analysis of the deposited data

Results flagged for a closer look

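Among the 4 trunk tumors, 74 values were searched for 1 tumor far from the others. They were 36 genes, 36 list medians, total counts and the share of Rn45s. A value was flagged when the gap to the nearest other tumor exceeded Dixon's 95% critical value as a share of the range. This flagged 7, where chance flags about 5% if values are normal and independent, and some lists share genes. In tumor 18, Plin1 was at 0.2205 CPM, with 0.0565 CPM in the next trunk tumor, and Fabp4 was at 10.21 CPM, with 2.41 CPM in the next, so both adipocyte genes had a high trunk tumor that still lay below the perineal tumors. Krt5 was lowest in tumor 18, at 3294 CPM, and the next trunk tumor was at 5915 CPM. Cdx1 was highest among trunk tumors in tumor 18, at 0.8561 CPM, with 0.154 CPM in the next. The melanocyte list had a median log2 level of 1.126 in tumor 18 relative to the trunk mean, and the next trunk tumor was at -0.31.

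Tumor 29, the FSP1-Cre;NT3 trunk tumor, stood apart in the other 2. The nerve and Schwann cell list had a median of 0.409 there, next to -0.11, and the list of other positional regulators had a median of 0.5302, next to -0.057. No explanation was tested for any of them.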

How the results depend on the processing

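With edgeR the count of called genes stayed at 0 in both directions with upper-quartile scaling, library sizes alone, no filter on low counts, at least 10 counts in every tumor, halved counts and latency as a covariate, where latency left 332 genes higher and 45 lower at an unadjusted p under 0.05. Leaving out each tumor in turn, edgeR called from 0 to 562 genes higher and 0 to 5 lower, with 2 higher without tumor 25 and the highest counts without tumor 27; within FSP1-Cre it called 0 to 32 higher and 0 to 1 lower. DESeq2 called 566 higher and 39 lower, and without each tumor from 9 (without 36) to 1189 (without 27) higher and 5 to 303 lower, with 306 and 12 without tumor 13, 626 and 23 without 18, 561 and 108 without 25 and 651 and 80 without 29. Within FSP1-Cre DESeq2 called 30 higher and 5 lower, and without each tumor 1 to 631 higher and 2 to 37 lower.

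Without each tumor, genes in which every perineal tumor left lay above the trunk range numbered 1852 to 4633, and those below 1765 to 4478. The highest counts were those of tumor 36 as the only perineal tumor, and leaving out a tumor could only raise these counts. With library sizes alone, 830 lay below in both perineal tumors. With the 2-fold gap the numbers were 105 to 1256 above and 3 to 264 below, or 1 below with library sizes alone. The similarity difference ran from -0.00543 (without tumor 36) to 0.0758 (without tumor 27). List medians without each tumor ran from -0.82 to 8.72 for intestinal epithelium, 2.46 to 4.13 for adipocyte, 0.58 to 2.65 for posterior HOX and 0.74 to 1.17 for immediate early genes. Of 324 recomputed log2 differences of single genes, 322 kept their direction, of which 50 gained a call (32 with DESeq2, 17 without tumor 27 and 1 without tumor 25) where edgeR on all tumors made none, and 2 turned, Ccl20 to 0.057 against tumor 29 and Cdx1 to -3.17 without tumor 36; over each tumor left out Cdx1 ran from -3.17 to 9.34. Genes named for a 2-fold gap beyond every trunk tumor could hardly turn, so for them a kept direction followed from the choice. The cause of the shifts was not tested.

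No paired analysis was possible because perineal and trunk tumors come from different mice and the labels give no number that ties a perineal to a trunk tumor. With 2 perineal tumors, of 1 line, that differ widely from each other, the spread within the perineal site rests on a single difference. Site, line and latency cannot be told apart for the Osx-Cre;NT3 trunk tumors, and the contrast within FSP1-Cre;NT3 has 1 trunk tumor. Depth limits what can be said of genes near 3 counts.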

Other observations

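The genes in which both perineal tumors were lower held several that were chosen after their values had been seen. Bcl2l15, a BCL2-like gene, was at 119.0, 114.3, 94.1 and 69.6 CPM in trunk tumors 13, 18, 25 and 29 and at 34.7 and 36.3 CPM in perineal tumors 27 and 36, with an adjusted p of 0.000377 in DESeq2. H60c, a skin-expressed ligand of the receptor NKG2D, was at 52.9, 35.9, 43.4 and 32.7 CPM against 18.6 and 17.9 CPM. Skint1, which is needed for dendritic epidermal γδ T cells to develop, was at 169.3, 200.5, 132.6 and 108.0 CPM against 78.4 and 53.8 CPM, and its relative Skint8 at 35.4, 41.5, 28.8 and 31.8 CPM against 17.5 and 7.62 CPM. Il7, a cytokine that supports T cells in skin, was at 31.5, 42.7, 31.5 and 28.4 CPM against 19.7 and 13.4 CPM. DESeq2 called each of these 5 lower, against 0.23% of all genes, while edgeR called none of them. In each the trunk tumors did not overlap with the perineal tumors, which followed from the choice, and 9.6% of all genes lay below in both.

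Interferon-stimulated genes varied more among the trunk tumors than between sites. Their median log2 level relative to the trunk mean was 1.39 in trunk tumor 18 and -0.86 in trunk tumor 13, and 0.52 and 1.14 in perineal tumors 27 and 36, with 0 of 23 called by edgeR or DESeq2 and 2 at an unadjusted p under 0.05 in edgeR. B and plasma cell genes had a median log2 difference of 0.61 with 0 of 14 called by either tool. Both perineal tumors lay above the trunk range in 3 of them (21.4%, against 10.2% of all genes). Skeletal muscle genes had medians of -1.26 in tumor 27 and 1.15 in tumor 36, and melanocyte genes -0.078 and 0.79. Of 12 nerve and Schwann cell genes, DESeq2 called Cdh19, a cadherin of Schwann cell precursors, at 0.0829, 0.117, 0.0565 and 0.154 CPM in trunk tumors and at 0.276 and 3.48 CPM in perineal tumors, a gene that passed the filter on low counts only through the perineal tumors.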
